A study of Mus musculus with 24 samples.

Results

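The 8 genes described here carry dietary iron through the gut lining: Slc11a2 and Slc46a1, which encode carriers of the brush border, Cybrd1, a surface ferric reductase, Slc40a1 and Heph, which act in export to the blood, Fth1 and Ftl1, the ferritin subunits, and Tfrc, the transferrin receptor. They were chosen by symbol, and all 8 of 8 were found among the 21441 genes of each table. Their transcripts were measured by poly(A) RNA sequencing along the gut of C57BL6J mice, all wild type, in duodenum, ileum and colon. Treated mice (3xD) were injected with 1,25-dihydroxyvitamin D3 (calcitriol, the hormone form of vitamin D) at 1 ng per g of body weight, 3 times, the last 6 h and the earlier ones 48 and 24 h before tissue was taken. The controls (minusD) were vitamin D-deficient mice, whose labels name no treatment. Labelled ages run from 10 to 14 with no unit, 2 of 4 treated and 1 of 4 deficient mice are female, and the labels do not say how the deficiency was produced. All 8 genes passed the filter on low values in every tissue, Cybrd1 in the colon only through deficient libraries.

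Iron in food arrives mostly as ferric iron, which duodenal cytochrome b (the product of Cybrd1) and other reductants turn into ferrous iron at the brush border of absorptive cells. The divalent metal transporter DMT1 (Slc11a2) then carries it into the cell together with protons. Inside, iron is stored in ferritin, a shell of heavy (Fth1) and light (Ftl1) chains in which the heavy chain oxidises iron, or leaves through ferroportin (Slc40a1), the iron exporter, with the membrane oxidase hephaestin (Heph) turning it back to the ferric form. Slc46a1 encodes HCP1, also called PCFT, first described as a haem carrier and best known as the proton-coupled folate transporter of the upper gut. Tfrc brings in transferrin-bound iron from the blood side and is prominent in dividing cells. HIF-2alpha, a hypoxia-responsive factor encoded by Epas1, is known to raise transcription of Slc11a2, Cybrd1 and Slc40a1 in the duodenum.

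Part of the regulation of this group lies in the transcripts themselves. Iron regulatory proteins bind a hairpin called the iron-responsive element, with a bulged C, a stem of 5 pairs and a loop that reads CAGTGN in DNA letters. In a 5′ UTR the bound protein blocks translation, and in the 3′ UTR of Tfrc it protects the transcript, so the first kind of control is not seen in RNA levels and the second can be. A search of the gencode vM1 transcripts on NCBIM37, on the transcript strand, for CNNNNNCAGTGN followed by 5 bases that pair with the N bases before the loop (G-T pairs allowed) found such letters in a UTR of 4 of the 8 genes. Over all 22611 genes with a protein-coding transcript, 156 genes (0.69%) held them. The sites are shown because they are what joins storage, export and uptake genes in a single regulated set. Capitals mark the bulged C and the loop.
Fth1, 5′ UTR, chr19:10057222-10057250, plus strand: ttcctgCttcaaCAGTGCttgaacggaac
Ftl1, 5′ UTR, chr7:52715149-52715177, minus strand: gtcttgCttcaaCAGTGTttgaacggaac
Slc40a1, 5′ UTR, chr1:45982310-45982338, minus strand: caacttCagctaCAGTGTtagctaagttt
Tfrc, 3′ UTR, chr16:32631305-32631333, plus strand: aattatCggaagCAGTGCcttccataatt
Tfrc, 3′ UTR, chr16:32631684-32631712, plus strand: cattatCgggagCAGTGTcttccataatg
Tfrc, 3′ UTR, chr16:32631749-32631777, plus strand: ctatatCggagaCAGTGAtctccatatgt
Tfrc, 3′ UTR, chr16:32631796-32631824, plus strand: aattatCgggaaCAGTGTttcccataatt
The ferritin pair has the same letters between the bulged C and the loop, and Tfrc holds 4 sites in its 3′ UTR. No match in Slc11a2, Cybrd1, Heph or Slc46a1 says only that the letters with all 5 pairs are not in the annotated UTRs searched. Sites with the same letters but fewer pairs were not kept.

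Of 23 libraries, 12 came from treated mice, 4 per region, and 11 from deficient mice, 4 per region except the ileum with 3. Libraries are called by group and column number. Deficient libraries are minusD5718 (not in the ileum), 1, 2 and 3, and treated ones 1, 3xD5711, 3xD5720 and 3xD5734. Values per library follow in this order. Deposited values are FPKM, that is, fragments counted per kilobase of transcript and scaled to library size, and whole reads recovered from them came to at least 13888748 to 36069535 per library. Region markers fixed in lists matched the labels: the 9 duodenal markers summed to 7917 to 14419 FPKM in the duodenum, at most 2424 in other regions, ileal Fabp6 was at 1985 to 10714 against at most 281 outside it, and colonic Hoxb13 at 90.8 to 239, above every library of the other regions. Gkn1, a stomach gene, stood at 322 to 560 FPKM in the 4 duodenal libraries with 4-digit numbers and at most 0.0282 in the other 4, and the 4-digit numbers nearly coincide with treatment. The 3xD5720 libraries stood apart in all 3 regions, with Lcn2, the iron-siderophore-binding lipocalin made in inflammation, at 265, 365 and 273 FPKM against at most 5.38, 14.3 and 14.6 elsewhere.

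Cyp24a1, which encodes the enzyme that inactivates calcitriol and is a known target of it, served as a check of the treatment labels: it lay at 2.67 to 641 FPKM in the 12 treated libraries and at most 0.418 in the 11 deficient ones. No iron gene passed the threshold for treatment. Most of them differed between regions of the gut.

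Levels between regions were compared as TPM, each library's FPKM divided by the library's own sum and multiplied by 1000000, on log2(TPM + 1), in a single limma fit of the 6 groups with Benjamini-Hochberg adjustment over 14082 genes. That fit did not pair libraries by number. A gene is called at an adjusted p under 0.05. In deficient mice 5 of the 8 genes were higher in the duodenum than in the ileum (background over all genes 8.49% higher and 15.6% called in either direction) and none was lower. In treated mice 6 were higher (background 7.27% higher, 20.1% in either direction). Against the colon, 5 genes were higher in the duodenum in deficient mice (background 9.64% higher, 61.1% in either direction) and 5 in treated mice (8.95% and 61%). Between ileum and colon 1 gene was higher and 4 lower in the ileum of deficient mice (background 5.86% higher and 49.3% lower), and 1 higher and 3 lower in treated mice (7.04% and 37.9%). The members' share that was lower in the ileum than in the colon, 4 and 3 of 8, was near that of all genes, whereas 5 or 6 of 8 higher in the duodenum was above it. These are bulk tissues, in which fewer cells of a type and less RNA per cell cannot be told apart. Cell type markers moved with the regions: the 10 enterocyte markers summed to 24700.4 to 31866 FPKM in duodenal, 13592 to 33678 in ileal and 1206 to 2091 in colonic libraries. The 7 smooth muscle markers summed to 174.5 to 473 FPKM in duodenal, 797.5 to 1168 in ileal and 887.5 to 4344 in colonic ones. Summed exocrine pancreas markers (12 genes) reached 926 to 58389, 10.8 to 1217 and 137 to 30537 FPKM in the same order. The part of these cell types in the region differences below was not tested.

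The scale matters for the colon. On the TPM scale the median of all genes was -0.51 for duodenum minus colon in both groups, -0.52 (deficient) and -0.35 (treated) for ileum minus colon, and -0.18 for duodenum minus ileum in treated mice (log2). Of the calls between duodenum and colon in deficient mice, 15.8% were higher in the duodenum, against 52.3% after median-ratio rescaling, which sets the median gene near 0. For ileum and colon the share went from 10.6% to 51.4% in deficient mice. In treated mice it went from 14.7% to 52.9% for duodenum and colon, from 15.7% to 51.9% for ileum and colon, and from 36.2% to 57.5% for duodenum and ileum. The background of all genes called higher in the duodenum than in the colon rose to 24.2% (deficient) and 24.8% (treated) after rescaling. Against the ileum this background rose to 12.5% and 15.4%. The shares set beside the iron genes above are those in TPM. Differences are therefore given on both scales wherever the scale changes a call.

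**Figure D1:**
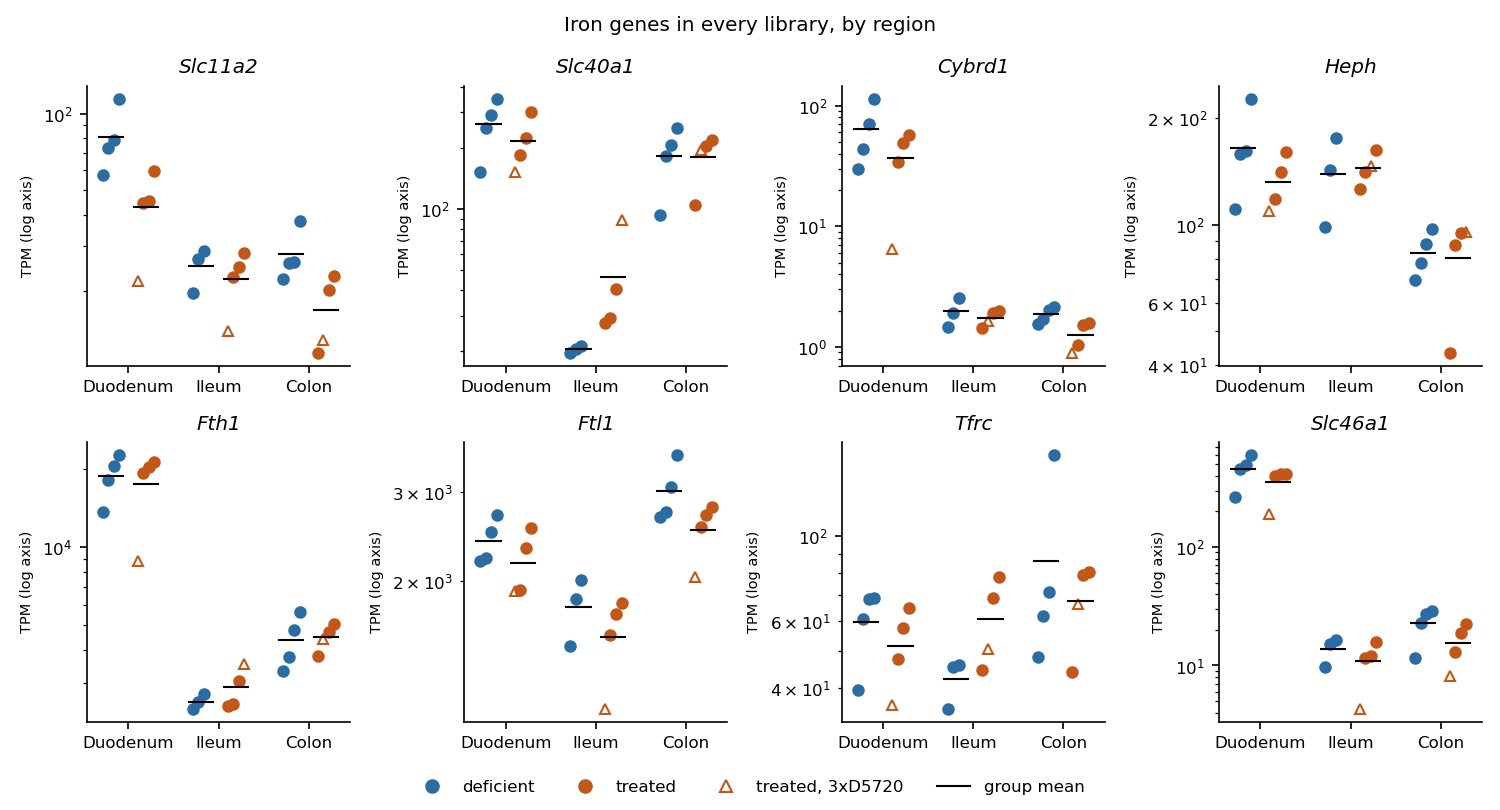
Level of each gene in every library in TPM (log axis), by region, with deficient mice in blue and treated mice in orange, a bar at each group mean and open triangles for treated 3xD5720. For Slc46a1, Cybrd1 and Fth1 every duodenal library lies above every ileal and colonic one, while the Tfrc values of the 3 regions overlap.

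Slc46a1 and Cybrd1, whose products work at the brush border, had the widest contrasts of the 8 genes between the duodenum and the other regions. Slc46a1 (chromosome 11, 78279199 to 78285447, plus strand, NCBIM37, as for all gene positions here) encodes the carrier first described for haem. In the duodenum, Slc46a1 stood at 292, 341, 331 and 193 FPKM in deficient and 280.0, 267, 164 and 312 in treated libraries. In the ileum, Slc46a1 stood at 9.97, 10.9 and 8.92 FPKM in deficient libraries 1 to 3 and 11.4, 8.17, 3.52 and 8.30 in treated ones. The colon held Slc46a1 at 14.4, 17.1, 16.2 and 7.23 and 17.3, 11.1, 5.75 and 8.08 FPKM in the same order. Every duodenal library lay above every ileal and colonic one. The duodenum exceeded the ileum by 4.92 ± 0.41 (log2 ± SE, 30.3-fold, adjusted p = 3.79e-08) in deficient and 4.95 ± 0.38 (30.9-fold, adjusted p = 1.03e-08) in treated mice, and the colon by 4.28 ± 0.38 and 4.44 ± 0.38 (limma, adjusted p = 7.42e-09 and 4.86e-09).

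Cybrd1 (chromosome 2, 70955980 to 70980983, plus strand) was likewise a duodenal transcript by level. In the duodenum, Cybrd1 stood at 73.6, 40.0, 29.3 and 21.8 FPKM in deficient and 33.2, 38.0, 5.69 and 25.6 in treated libraries. In the ileum, Cybrd1 stood at 1.24, 1.70 and 1.37 and 1.37, 1.03, 1.36 and 1.37. The colon held Cybrd1 at 1.08, 0.919, 1.27 and 1.28 and 0.799, 0.946, 0.627 and 0.935 FPKM, from 47 to 202 recovered reads per library. The lowest duodenal value, 5.69 in treated 3xD5720, was still above the highest of the other regions, 1.70. The duodenum exceeded the ileum by 4.30 ± 0.48 in deficient and 3.43 ± 0.45 in treated mice, and the colon by 4.35 ± 0.45 and 3.73 ± 0.45 (limma, adjusted p from 7.73e-08 to 1.44e-05). Ileum and colon were not separated (0.04 ± 0.48, 95% interval from -0.96 to 1.05, in deficient mice).

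Slc11a2 (chromosome 15, 100218329 to 100255503, minus strand) had a milder gradient than its partner reductase. In the duodenum, Slc11a2 stood at 47.1, 65.2, 53.0 and 41.7 FPKM in deficient and 40.4, 30.3, 19.1 and 33.3 in treated libraries. In the ileum, Slc11a2 stood at 18.9, 17.9 and 18.2 and 18.0, 16.2, 11.4 and 19.5. The colon held Slc11a2 at 23.7, 15.5, 15.2 and 14.0 and 8.85, 12.0, 9.01 and 14.2 FPKM. In deficient mice all duodenal libraries lay above all others, whereas in treated mice the groups overlapped, treated 3xD5720 (19.1) in the duodenum lying below treated 3xD5734 (19.5) in the ileum. Deficient duodenum exceeded deficient ileum by 1.63 ± 0.31 (adjusted p = 0.000906) and deficient colon by 1.48 ± 0.29 (adjusted p = 0.000195). In treated mice the differences were 0.86 ± 0.29 (adjusted p = 0.0394) and 1.27 ± 0.29 (adjusted p = 0.000862). The treated call against the ileum was lost when any of 6 single libraries was left out (duodenal treated 1, 3xD5711 or 3xD5734, ileal treated 1, 3xD5711 or 3xD5720, adjusted p from 0.0505 to 0.126), and with no filter on low values (adjusted p = 0.0535). Ileum and colon differed in treated mice by 0.41 ± 0.29 (adjusted p = 0.26), a difference that passed only after median-ratio rescaling (0.78 ± 0.22, adjusted p = 0.00837).

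Export to the blood followed another order. Slc40a1 (chromosome 1, 45964915 to 45982439, minus strand) was high at both ends of the gut and low in the ileum. In the duodenum, Slc40a1 stood at 225, 166, 170.0 and 112 FPKM in deficient and 203, 150.5, 132 and 139 in treated libraries. In the ileum, Slc40a1 stood at 13.5, 14.3 and 18.2 and 19.9, 29.0, 73.2 and 20.2. The colon held Slc40a1 at 115, 149, 122 and 58.7 and 81.8, 130.1, 137 and 128 FPKM. In deficient mice the highest ileal library (18.2) was far below the lowest colonic one (58.7). The duodenum exceeded the ileum by 3.55 ± 0.38 (11.7-fold, adjusted p = 1.38e-06) in deficient and 2.31 ± 0.35 (4.94-fold, adjusted p = 8.86e-05) in treated mice. The ileum was lower than the colon (-3.02 ± 0.38, adjusted p = 2.28e-06, in deficient and -2.05 ± 0.35, adjusted p = 9.65e-05, in treated mice). Duodenum and colon were not separated on the TPM scale (0.53 ± 0.35 in deficient, 95% interval from -0.20 to 1.26, and 0.26 ± 0.35 in treated mice, from -0.47 to 0.99). After median-ratio rescaling the duodenum was higher, by 1.11 ± 0.34 (adjusted p = 0.0104) and 0.87 ± 0.34 (adjusted p = 0.0387).

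Heph (chromosome X, 93650698 to 93769824, plus strand), the oxidase that works with ferroportin, did not share the ileal dip. In the duodenum, Heph stood at 104, 129, 107 and 80.5 FPKM in deficient and 109, 94.3, 95.1 and 88.9 in treated libraries. In the ileum, Heph stood at 116, 95.9 and 91.4 and 102, 90.1, 121 and 112. The colon held Heph at 55.4, 57.8, 45.7 and 43.7 and 33.7, 52.3, 67.3 and 58.8 FPKM. Both small intestinal regions exceeded the colon: the duodenum by 0.94 ± 0.24 in deficient and 0.76 ± 0.24 in treated mice (adjusted p = 0.00214 and 0.00947), the ileum by 0.71 ± 0.26 and 0.90 ± 0.24 (adjusted p = 0.026 and 0.00469). The deficient call between ileum and colon was lost without ileal deficient 1 or 2 or colonic deficient 2 or 3 (adjusted p from 0.0538 to 0.129), and median-ratio rescaling widened the differences to 1.27 ± 0.19 for ileum and 1.51 ± 0.17 for duodenum. Duodenum and ileum were not separated (0.23 ± 0.26, 95% interval from -0.31 to 0.77, in deficient mice). Within a library, which needs no scaling between regions, the ratio of Slc40a1 to Heph FPKM was 1.28 to 2.17 in the duodenum, 1.34 to 2.66 in the colon and 0.117 to 0.606 in the ileum. The ileal range does not touch the other ranges, and its highest value belongs to treated 3xD5720.

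**Figure D2:**
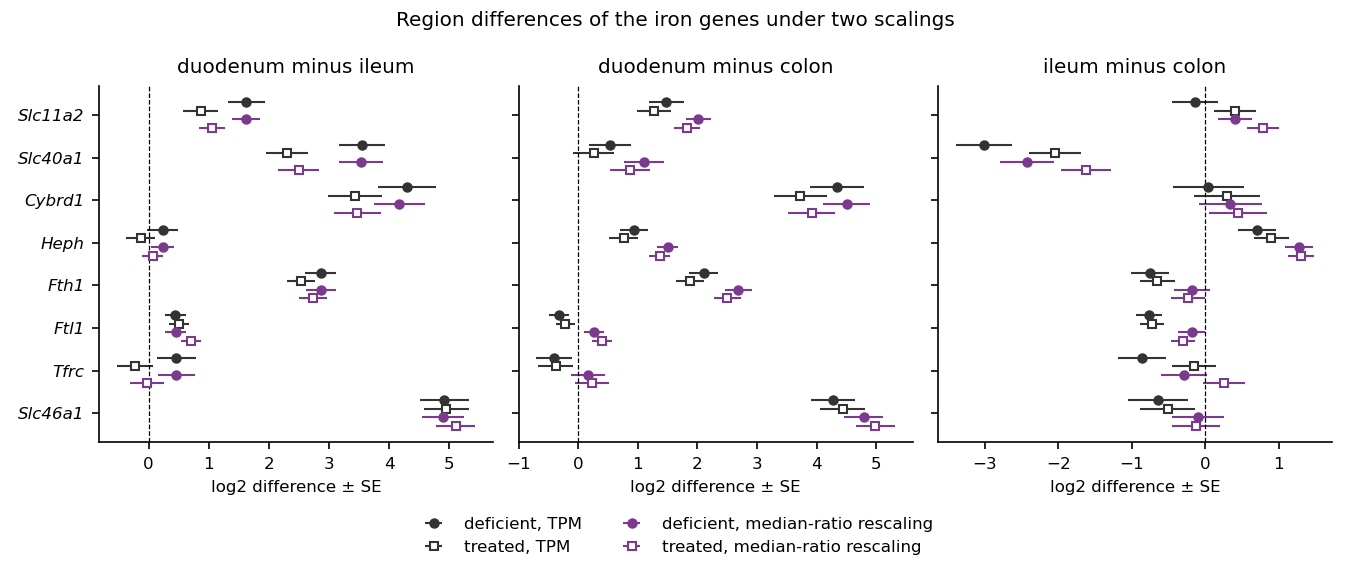
Difference of each gene between regions (log2, with SE bars) on the TPM scale in black and after median-ratio rescaling in purple, for deficient (filled circles) and treated mice (open squares). Slc46a1, Cybrd1, Fth1 and Slc11a2 lie right of 0 against both other regions on both scales, whereas Ftl1 changes sign between duodenum and colon.

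Storage divided between the subunits. Fth1 (chromosome 19, 10057193 to 10059582, plus strand) was a duodenal gene by level. In the duodenum, Fth1 stood at 13191, 12905, 12255 and 9966 FPKM in deficient and 13132, 13653, 7676 and 16017 in treated libraries. In the ileum, Fth1 stood at 1664, 1818 and 2201 and 1796, 2173, 2931 and 1692. The colon held Fth1 at 3525, 2859, 2221 and 2077 and 2965, 2800.4, 3125 and 3150.0 FPKM. All duodenal libraries lay above all others. The duodenum exceeded the ileum by 2.86 ± 0.26 (7.27-fold, adjusted p = 1.34e-07) in deficient and 2.53 ± 0.24 (5.79-fold, adjusted p = 2.45e-07) in treated mice, and the colon by 2.10 ± 0.24 and 1.88 ± 0.24 (adjusted p = 3.01e-07 and 1.48e-06). On the TPM scale the ileum was lower than the colon (-0.76 ± 0.26 and -0.65 ± 0.24, adjusted p = 0.0181 and 0.0306). Those calls ended after median-ratio rescaling (-0.18 and -0.24, adjusted p = 0.644 and 0.48), and each was lost with some single library left out: ileal deficient 3 or colonic minusD5718, and ileal treated 1 or 3xD5734 or colonic 3xD5711 or 3xD5734 (adjusted p from 0.0578 to 0.0813).

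Ftl1 (chromosome 7, 52713314 to 52715254, minus strand) kept a narrow range throughout. In the duodenum, Ftl1 stood at 1740.1, 1246, 1689 and 1617 FPKM in deficient and 1575, 1284, 1659 and 1915 in treated libraries. In the ileum, Ftl1 stood at 1206, 1346 and 1375 and 1304, 1108, 913 and 1187. The colon held Ftl1 at 1685, 2120.1, 1613 and 1922 and 2175, 1521, 1432 and 1680.5 FPKM. The whole range, 913 to 2175 FPKM, spans far less than that of Fth1, 1664 to 16017. Duodenum against ileum gave 0.44 ± 0.17 (adjusted p = 0.0937) in deficient mice, or 0.44 ± 0.14 (adjusted p = 0.0337) with the library number, which pairs these regions, as a replicate block. In treated mice it gave 0.50 ± 0.16 (adjusted p = 0.0314), a call lost without duodenal treated 1 or 3xD5734 or ileal 3xD5711 or 3xD5720 (adjusted p from 0.0552 to 0.109) and without all 3xD5720 libraries (0.41 ± 0.14, adjusted p = 0.0636). The ileum was lower than the colon (-0.77 ± 0.17 and -0.72 ± 0.16, adjusted p = 0.00119 and 0.0012), but not after median-ratio rescaling (-0.19 and -0.30, adjusted p = 0.482 and 0.183). The sign between duodenum and colon depends on the scale: -0.32 ± 0.16 and -0.22 ± 0.16 in TPM (adjusted p = 0.0883 and 0.249), against 0.26 ± 0.16 and 0.40 ± 0.16 after rescaling (adjusted p = 0.209 and 0.0497). Reads of ferritin transcripts can be shared with near-identical processed copies in the genome, and the labels do not say how the counting treated them, so the ferritin levels carry that uncertainty. Fthl17, a relative of the heavy chain, is listed at 0 in all 23 libraries.

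The ratio of heavy to light chain transcripts within a library carries the same contrast free of scaling. Fth1 over Ftl1 was 6.16 to 10.4 in deficient and 4.63 to 10.6 in treated duodenal libraries. Ileal libraries ranged from 1.35 to 1.60 (deficient) and 1.38 to 3.21 (treated). Colonic ones ranged from 1.08 to 2.09 and 1.36 to 2.18. The medians were 7.96 in the duodenum, 1.43 in the ileum and 1.61 in the colon. No duodenal library reached down to the range of the others, and treated 3xD5720 held both the lowest duodenal ratio (4.63) and the highest ileal one (3.21).

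**Figure D3:**
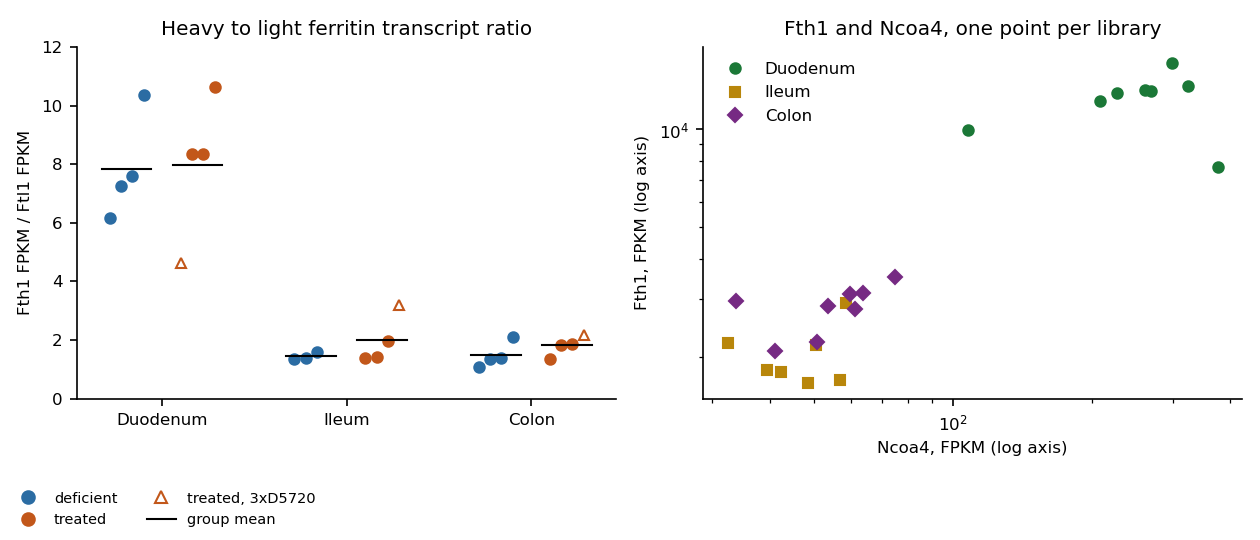
Left, the ratio of Fth1 to Ftl1 FPKM in each library by region, with deficient mice in blue, treated mice in orange, a bar at each group mean and open triangles for treated 3xD5720; right, Fth1 against Ncoa4 FPKM (log axes), 1 point per library. The duodenal ratios (4.63 to 10.6) lie above all others, and the duodenal libraries hold the highest levels of both Fth1 and Ncoa4.

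Among the genes whose profile over the 23 libraries was nearest to that of Fth1 was Ncoa4, the receptor that delivers ferritin to lysosomes so that its iron can be released. Nearness was the mean absolute difference of log2(TPM + 1) after centring each gene, over 14082 genes, and is a description with no test. Ncoa4 came second with a mean difference of 0.293, after Rhobtb3 (0.248) and before Adora2b (0.327). Ncoa4 stood at 261, 227, 208 and 108 FPKM in deficient and 269, 324, 375 and 299 in treated duodenal libraries. Ileal levels of 32.5 to 58.7 FPKM and colonic ones of 33.9 to 74.9 were all under the lowest duodenal value. In FPKM all 4 treated duodenal libraries lay above the 4 deficient ones, as for 1.99% of all genes. In TPM these groups overlapped, with treated 1 below deficient minusD5718. The FPKM difference was 0.72 ± 0.26 and was not called (limma, unadjusted p = 0.0231, adjusted p = 0.499). In the list of 10 genes of iron sensing and ferritin turnover, Ncoa4 had the smallest p (2.58 ± 0.30 for duodenum against ileum in treated mice, adjusted p = 3.51e-06). The levels of Fth1 and Ncoa4 did not move together within every region: treated 3xD5720 had the highest Ncoa4 (375) and the lowest Fth1 (7676) of the duodenum.

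Tfrc (chromosome 16, 32609006 to 32632880, plus strand) had no steady order of regions. In the duodenum, Tfrc stood at 25.5, 39.1, 40.9 and 50.2 FPKM in deficient and 39.1, 43.4, 31.4 and 35.8 in treated libraries. In the ileum, Tfrc stood at 29.8, 23.6 and 42.8 and 32.3, 49.2, 41.6 and 54.1. The colon held Tfrc at 44.9, 28.8, 36.4 and 102 and 34.2, 47.2, 46.9 and 50.1 FPKM. In TPM, Tfrc was not called in 5 of the 6 region comparisons, and its groups overlapped in these. The exception was deficient ileum, lower than deficient colon (-0.86 ± 0.32, adjusted p = 0.0303 in limma). There the TPM groups were narrowly apart, at most 46.1 against at least 48.4, while the FPKM values above overlap. That call was lost after median-ratio rescaling (-0.29 ± 0.31, adjusted p = 0.536), without ileal deficient 2 or 3, and without colonic deficient 3 (-0.50 ± 0.27, adjusted p = 0.127). Colonic deficient 3 had the highest Tfrc of all libraries (102) together with the highest colonic levels of the cell-cycle genes Mki67 (38.7 against at most 34.0 FPKM) and Top2a (61.0 against at most 45.1). The 10 proliferation markers summed to 511 FPKM there against 215 to 339 in the other 7 colonic libraries, and the part of proliferation in the Tfrc value was not tested.

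Each gene has its own neighbours in profile. The nearest to Slc46a1 were the transcription factor genes Onecut2 (0.457) and Pdx1 (0.555), which mark the upper small intestine, and Gsta1 (0.569). Onecut2 (0.342) was also among the nearest to Cybrd1, between Ugt2b38 (0.332) and Adh4 (0.361). Slc40a1 lay nearest to Adh1 (0.393), Fam13a (0.418) and Gstm7 (0.514), and Slc11a2 to Dock8 (0.182), Spg20 (0.21) and Cyb5b (0.227). Heph was closest of all to its first neighbour, the intestinal cadherin gene Cdh17 (0.094), followed by Snx9 (0.131) and Zdhhc9 (0.146). Ftl1 had 2310016M24Rik (0.119), Rfxank (0.12) and Ccdc56 (0.122), and Tfrc had Mrpl1 (0.226), Hnrpll (0.234) and Cep57 (0.237).

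Treatment was tested within each tissue on log2(FPKM + 1), treated minus deficient, with limma. None of the 8 genes was called in the duodenum, where 0.0256% of 11734 genes were, nor in the ileum (0% of 12149) or the colon (0% of 12746). At an unadjusted p under 0.05 the counts were 1 of 8 in the duodenum (9.4% of all genes), 0 of 8 in the ileum (5.84%) and 1 of 8 in the colon (5.85%). The median difference of the 8 genes was -0.09, -0.01 and -0.10 in the 3 regions, against 0.01, 0.01 and -0.01 for all genes tested. The colonic median includes Cybrd1 (-0.23 ± 0.13), which passed the filter there only through deficient libraries, all treated ones being under 1 FPKM. Its lower treated value in the colon is therefore tied to the filter. For the vitamin D panel of 6 genes, set beside them as a check, 5 of the 5 tested in the duodenum lay at an unadjusted p under 0.05, as did 2 of 4 in the ileum and 4 of 5 in the colon. No label says which samples were separate litters or cages, so the p-values measure the spread between these libraries.

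**Figure D4:**
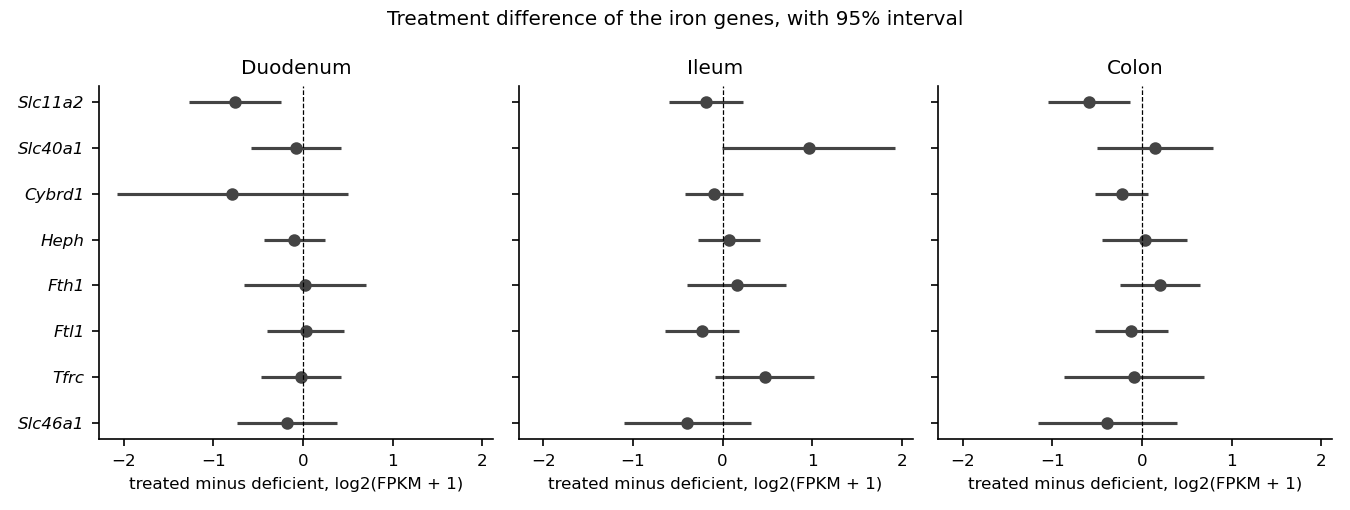
Treated minus deficient on log2(FPKM + 1) for the 8 genes in each region, as points with 95% intervals from limma. Colonic Cybrd1 passed the filter on low values only through deficient libraries. The interval excludes 0 for Slc11a2 in the duodenum and colon before adjustment over all genes, and reaches from -0.00 to 1.92 for Slc40a1 in the ileum.

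Slc11a2 had the lowest p of the 8 genes in the duodenum. In FPKM all 4 treated libraries (19.1 to 40.4) lay below all 4 deficient ones (41.7 to 65.2), a separation that 2.38% of all genes showed in that direction. In TPM the groups overlapped, with treated 1 (59.5) above deficient 3 (57.4). Lymphocyte markers leaned the same way between these groups: all 9 T cell markers had negative differences (median -0.61, 4 at an unadjusted p under 0.05, 0 called), with sums of 21.2 to 62.4 FPKM in treated and 49.9 to 96.2 in deficient libraries. All 6 tested B cell markers were negative as well (median -0.98, 3 at an unadjusted p under 0.05, 0 called), with sums of 49.2 to 663.5 and 129 to 1419.5 FPKM. Stomach markers (10 genes) leaned the other way, with median sums of 7331 FPKM in treated and 133 in deficient libraries (highest 9151 and 12369). Enterocyte markers (10 genes) also leaned the other way, at 26471 to 31866 FPKM against 24700 to 28529. The part of any of these cell types in the Slc11a2 values was not tested. The difference was -0.76 ± 0.23 (95% interval from -1.27 to -0.25, a fold of 0.591), with an unadjusted p of 0.00821, rank 186 of 11734, and an adjusted p of 0.499 in limma. It was -0.37 within the serially numbered libraries (1 treated, 3 deficient) and -0.79 within the 4-digit ones (3 and 1). The range over leaving out single libraries was -0.90 to -0.56, and the adjusted p ran from 0.116 to 0.906 over all alternatives. In the colon Slc11a2 showed the same sign, -0.59 ± 0.20 (unadjusted p = 0.0177, adjusted p = 0.846), -0.69 and -0.98 within the numbering schemes, with treated 3xD5734 (14.2) above deficient 3 (13.9), and there 7 of 8 tested T cell and all 6 B cell markers were negative too. In the ileum it was -0.19 ± 0.18 (adjusted p = 0.741), with overlapping groups. The difference in response between regions was tested and not called (duodenum minus ileum -0.76 ± 0.43, adjusted p = 0.855, and duodenum minus colon -0.21 ± 0.41, adjusted p = 1).

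Ileal Slc40a1 was the other gene whose groups did not overlap in FPKM, and here they did not in TPM either. Its treated libraries (19.9 to 73.2 FPKM) lay above the deficient ones (13.5 to 18.2), as did those of 3.35% of all genes. The difference was 0.96 ± 0.42 (95% interval from -0.00 to 1.92, adjusted p = 0.706), or 0.55 ± 0.19 (adjusted p = 0.869) without treated 3xD5720, and 0.37 between treated 1 and the 3 deficient libraries, the only scheme there with both groups. Duodenal Slc40a1 gave -0.08 ± 0.22 (adjusted p = 0.899), with 0.47 within the serially numbered libraries and -0.68 within the 4-digit ones, and colonic Slc40a1 0.15 ± 0.29 (adjusted p = 0.956). For this gene the response in the duodenum minus that in the ileum was -1.24 ± 0.52 (unadjusted p = 0.0257, adjusted p = 0.855). None of the 14082 genes was called for a difference in response between any 2 regions, and 4.5%, 1.53% and 3.46% lay at an unadjusted p under 0.05 for duodenum minus ileum, duodenum minus colon and ileum minus colon.

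For the other genes the intervals were wide against their differences. Duodenal Cybrd1 gave -0.79 ± 0.57 (95% interval from -2.08 to 0.50, adjusted p = 0.626), the widest interval of the 8, with treated 3xD5720 (5.69) far below the other 7 libraries (21.8 to 73.6). Without that library it was -0.21 ± 0.37, and within the serial and 4-digit libraries it was 0.17 and -1.97. Ileal Tfrc gave 0.47 ± 0.24 (from -0.08 to 1.02, adjusted p = 0.706). Slc46a1 gave -0.18 ± 0.25, -0.39 ± 0.31 and -0.38 ± 0.34 from duodenum to colon (adjusted p = 0.79, 0.719 and 0.909). Fth1 gave 0.02 ± 0.30, 0.16 ± 0.24 and 0.20 ± 0.20, and Ftl1 0.03 ± 0.19, -0.22 ± 0.18 and -0.12 ± 0.18. Heph gave -0.10 ± 0.15, 0.07 ± 0.15 and 0.03 ± 0.21, with intervals that stay between -0.44 and 0.50.

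Treated mouse 3xD5720 stood at an extreme of its region in some iron genes, as in Lcn2. In FPKM, within the range of the others lay Tfrc in all 3 regions, duodenal Slc40a1, Heph and Ftl1, ileal Cybrd1, and colonic Slc11a2, Slc40a1 and Fth1. In TPM its duodenal library was narrowly the lowest in Slc40a1 (152.2, the next 153.3), Heph (109.2, the next 110.8) and Ftl1 (1907, the next 1921). Duodenal Tfrc was lowest there in TPM too (36.1, the next 39.5). How many of all genes stood at an extreme in this mouse was not counted. Its 3 libraries also had the highest Reg3b, an antibacterial lectin gene, at 109008 FPKM in the duodenum, 94169 in the ileum and 24186 in the colon, against at most 39059, 45927 and 5667 elsewhere. Slc46a1 was at its lowest there in all 3 regions (164, 3.52 and 5.75 FPKM). In the duodenum Slc11a2 (19.1), Cybrd1 (5.69) and Fth1 (7676) were at their lowest as well. In the ileum Slc11a2 (11.4) and Ftl1 (913) were lowest, while Slc40a1 (73.2), Heph (121) and Fth1 (2931) were highest. In the colon Cybrd1 (0.627) and Ftl1 (1432) were lowest and Heph (67.3) highest. These ranks are in FPKM, and Heph was not the highest in TPM in either region. It stood at 146.7 TPM in this mouse's ileum against 176.2 in ileal deficient 1. In the colon it was 95.6 against 97.1 in colonic deficient 1. Ileal Epas1, the gene of HIF-2alpha, was at 38.6 FPKM in this library against 11.7 to 14.8 in the other 6, and ileal Fabp6, a bile acid-binding protein gene of absorptive cells, at 1985 against 5462 to 10714. Hepcidin 1 (Hamp), the hormone gene that closes ferroportin, was at 30.6 FPKM in its colon against at most 0.904 in the other 7 and at 5.05 in its ileum against at most 1.56. The exocrine pancreas markers of the same colonic library summed to 30537 FPKM against 137 to 5792 in the others, and their part in these values was not tested. Without the 3xD5720 libraries the counts of genes called between regions were 6 and 5 of 8 for duodenum against ileum (deficient and treated; 19.2% and 15.2% of all genes), 6 and 5 for duodenum against colon (63.7% and 53.8%), and 5 and 4 for ileum against colon (58.5% and 41.8%).

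**Figure D5:**
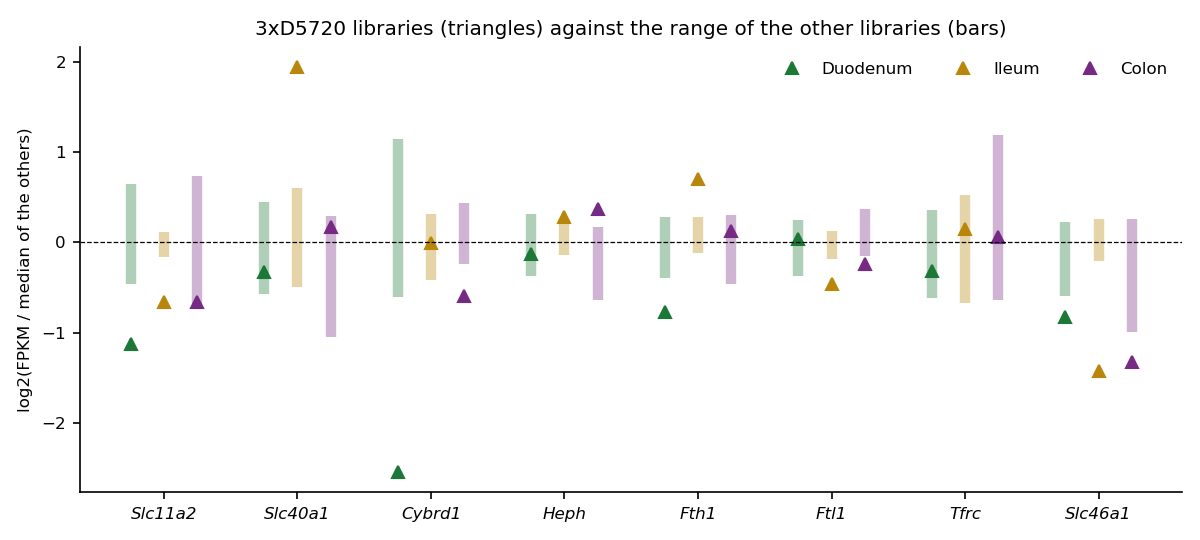
FPKM in the 3xD5720 libraries (triangles) as log2 of the ratio to the median of the other libraries of the region, with bars for the range of those others. Slc46a1 lies below the bar in all 3 regions, duodenal Cybrd1 lies furthest below, and ileal Slc40a1 furthest above.

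Other iron genes were looked up in lists. Those named are called genes, up to 4 per list and direction by smallest p. They are mostly given in the comparison where that p was smallest, so they do not describe the whole lists. The lists were chosen with earlier results of these data known. Of 10 genes of iron sensing and ferritin turnover, all tested, 3 were higher in the deficient duodenum than in the ileum and 0 lower, where 8.49% of all genes were higher and 7.09% lower. These were Ncoa4 (2.44 ± 0.32), Ireb2 (1.34 ± 0.34, adjusted p = 0.00852), which encodes iron regulatory protein 2, and Pcbp1 (0.62 ± 0.17, adjusted p = 0.0187), an iron chaperone gene. Leaving out ileal deficient 3 ended the Ireb2 call (1.04 ± 0.36, adjusted p = 0.0554), and 3 single libraries ended that of Pcbp1 (duodenal deficient 1, ileal deficient 1 or 2). Fbxl5, whose product marks iron regulatory protein 2 for degradation, was 0.65 ± 0.23 higher than in the colon (adjusted p = 0.0207), a call lost without duodenal deficient minusD5718 or 1 or colonic deficient 1. The iron-sulfur cluster genes Iscu (-0.58 ± 0.11) and Nfs1 (-0.64 ± 0.12) and the chaperone genes Pcbp1 (-0.82 ± 0.17) and Pcbp2 (-0.64 ± 0.16) were lower in the ileum than in the colon in TPM, and none of these 4 calls held after median-ratio rescaling (adjusted p from 0.233 to 0.682).

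Among 27 genes of other iron and haem transport, 24 were tested between regions. In deficient mice 2 were higher and 3 lower in the duodenum than in the ileum, and 3 higher and 9 lower than in the colon. Over all genes the shares were 8.49% and 7.09% against the ileum and 9.64% and 51.4% against the colon, the last falling to 22.1% after median-ratio rescaling, so the counts of this list do not stand out from them. Slc39a14, which encodes the metal carrier ZIP14, followed the duodenum (2.25 ± 0.28 against the colon, adjusted p = 1.11e-06), at 54.7 to 92.8 FPKM there, with ileal levels of 21.7 to 43.8 and colonic ones of 7.89 to 19.9. The mitochondrial iron importers differed from each other: Slc25a28 was higher in the duodenum (0.72 ± 0.19 against the colon in treated mice, adjusted p = 0.00273), while Slc25a37 was highest in the ileum, at 22.2 to 65.2 FPKM against at most 19.2 elsewhere (-2.05 ± 0.37 for treated duodenum against ileum, adjusted p = 0.000452). Abcb10, a mitochondrial transporter gene, was 0.72 ± 0.15 higher in the treated ileum than in the colon. On the colonic side stood Slc48a1, a haem transporter gene (-1.69 ± 0.13 for treated duodenum against colon, adjusted p = 1.77e-09), and the metalloreductase genes Steap3 (-2.71 ± 0.23 in deficient mice, adjusted p = 4.11e-09) and Steap4 (-2.28 ± 0.39 in treated mice). Steap3 was at 0.803 to 1.85 FPKM in the duodenum and 7.57 to 14.3 in the colon, the reverse of Cybrd1. 

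Of 14 genes of the hepcidin axis, 11 were tested between regions. Hamp2, a relative of hepcidin, was 2.87 ± 0.67 higher in the deficient duodenum than in the ileum (adjusted p = 0.00496), at 0.481 to 13.7 FPKM. Exocrine pancreas markers were also higher there in sum (given above), and their part in the Hamp2 value was not tested. Transferrin (Trf, -1.78 ± 0.25 in treated mice) and the bone morphogenetic protein genes Bmp2 (-1.63 ± 0.23) and Bmp6 (-1.03 ± 0.19 in deficient mice) were lower in the duodenum than in the colon, and Hfe was lower in the treated ileum than in the colon (-0.74 ± 0.15).

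Of 9 oxygen-sensing genes, all tested, 1 was higher in the deficient duodenum than in the ileum (Epas1, 1.25 ± 0.34, adjusted p = 0.0137), a call lost without duodenal deficient 1 or ileal deficient 3, and in treated mice 0 were (3 at an unadjusted p under 0.05). With 8.49% of all genes higher in the deficient comparison, 1 of 9 is near the background. Epas1 was also lower in the deficient ileum than in the colon (-1.58 ± 0.34, adjusted p = 0.000697), so its low point in deficient mice was the ileum. Vhl (-0.63 ± 0.13, duodenum), Egln1 (-0.93 ± 0.19, ileum) and Hif1a (-1.65 ± 0.46, ileum) were lower than in the colon in TPM in deficient mice, calls that ended after median-ratio rescaling (adjusted p from 0.0526 to 0.458). Of 11 tested hypoxia targets outside iron metabolism, 2 were higher in the deficient duodenum than in the colon and 6 lower, near the 51.4% of all genes that were lower on this scale (22.1% after median-ratio rescaling). Car9 (2.10 ± 0.22 for treated duodenum against ileum) and Pfkfb3 (2.05 ± 0.38 for deficient duodenum against colon) were higher in the duodenum, and the glucose carrier gene Slc2a1 (-3.57 ± 0.16), P4ha1 (-1.47 ± 0.21) and Adm (-1.48 ± 0.29) were lower there than in the colon. Pdk1 was lower in the deficient ileum than in the colon (-0.95 ± 0.19), but not after rescaling (-0.40 ± 0.17, adjusted p = 0.0888).

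Treatment moved none of these other genes past the threshold in any region. At an unadjusted p under 0.05 stood 1 of 10 tested genes of iron sensing and 3 of 10 hypoxia targets in the duodenum, 1 of 24 genes of other iron transport and 1 of 11 hypoxia targets in the ileum, and 3 of 23 and 1 of 11 of the same lists in the colon. Over all genes 9.4%, 5.84% and 5.85% did so in the 3 regions, and several of these counts lie near those shares. The duodenal gene of iron sensing was Ncoa4.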

How the data were processed

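Per the labels' protocols, poly(A) RNA was made into libraries with a NEBNext Ultra II kit and reads were mapped in CLC Genomics Workbench. That protocol text is incomplete. Named without roles in the submitters' processing notes are mm9, DESeq2, DESeq 1.14.0 and kallisto 0.45.0. The authors deposited FPKM per gene symbol, 21441 genes a table, normalized separately by tissue. Gene positions and UTRs were taken here from gencode vM1 on NCBIM37, the assembly of mm9. Since 171528 of 171528 values in the 8-library ileum table are those of the duodenum, ileal values come from the 7-library table, 4 treated against 3 deficient and not the planned 4 against 4. Vehicle columns were read as deficient mice, the only control that the table titles (MinusD, 3xD) leave.

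The filter kept genes reaching a value of 1 in 3 or more libraries, and log2(value + 1) was tested with limma 3.58.1 (eBayes with trend) in R 4.3.3, two-sided, Benjamini-Hochberg threshold 0.05: FPKM within a tissue, and for regions and responses TPM, computed here as FPKM over each library's own sum times 1000000. The tests were tried on simulated data first. Whole reads, within 0.0001, were recovered for 83.5%, 83.4% and 83.3% of genes above 0 in at least 3 duodenal, ileal and colonic libraries. These totals are lower bounds on depth.

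Deviations from group means correlated over 0.1 between same-numbered libraries in 7 of 7 pairs of duodenum and ileum (lowest 0.13, median 0.224), which were therefore read as paired, 7 of 8 of duodenum and colon (lowest -0.03) and 6 of 7 of ileum and colon (lowest 0.062). The main fit of the 6 groups had no pairing term. The library number entered only as a replicate block among the alternatives. Columns carry no replicate number of the labels, so label sex could not be assigned to libraries, and Xist served instead. Numbering nearly coincides with treatment and with Xist. Members and lists were chosen with earlier results of these data known. Named genes were every member, up to 4 called genes per iron or hypoxia list and direction by smallest p, the vitamin D panel, markers that moved with a result, and 3 nearest profiles per member. Genes named for treated 3xD5720 (Lcn2, Reg3b, Hamp, Fabp6 and ileal Epas1) were picked after their values were seen.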

Additional observations from a re-analysis of the deposited data

Results flagged for a closer look

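In groups of 4 libraries, 40 in all for the 8 genes, a library was singled out when its gap to the nearest other exceeded 0.829 of the group's range (Dixon), which chance does for about 1 in 20 groups. That happened 3 times. Slc11a2 in the colon of deficient minusD5718 stood at 23.7 FPKM against 13.9 to 15.5 in the other deficient libraries. Slc40a1 in the ileum of treated 3xD5720 stood at 73.2 FPKM against 19.9 to 29.0 in the other treated ones. Cybrd1 in the ileum of treated 3xD5711 stood at 1.03 FPKM against 1.36 to 1.37, a gap that is small in absolute terms. Groups of 3 were not tested.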

How the results depend on the processing

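Of 400 counts of genes called (12 comparisons under their alternatives), 395 stayed within 1.5 times the main count, including every count of 0 for treatment and for differences in response. The exception was the ileum against the colon in deficient mice, where 5 genes were called, against 2 after median-ratio rescaling, 3 on FPKM as deposited, and 3 to 5 over leaving out single libraries (3 without ileal deficient 2, ileal deficient 3 or colonic deficient 3). Fewer samples and a shifted median gene are part of how those alternatives are built. For single iron genes, 3014 values kept their sign and side of the threshold, 36 lost the call, 15 gained it, 126 uncalled values changed sign and 1 reversed: Ftl1 for treated duodenum against colon, 0.40 (adjusted p = 0.0497) after median-ratio rescaling against -0.22. Of the values of other named genes 18 lost the call and 1164 did not. Slc46a1, Cybrd1 and Fth1 stayed called as higher in the duodenum than in both other regions, Slc11a2 and Heph than in the colon, and Slc40a1 than in the ileum, under all 37 alternatives of each comparison. With the library number as a replicate block, Slc46a1 was also called lower in the ileum than in the colon (-0.62, adjusted p = 0.00261, in deficient and -0.51, adjusted p = 0.00491, in treated mice) and Ftl1 lower in the deficient duodenum than in the colon (-0.32, adjusted p = 0.0306), and the pairing of the colon rests on the number alone. The block changed no other call besides that of Ftl1 between duodenum and ileum. No paired analysis was possible within a tissue because treated and deficient libraries share no number that the labels give. For treatment, Cybrd1 fell under the filter with a minimum of 5 in the ileum and under 7 alternatives in the colon, which give no value. Over all genes, calls between ileum and colon went from 7768 (deficient) and 6329 (treated) to 3848 and 4082 after median-ratio rescaling, those between duodenum and ileum from 2195 and 2828 to 4382 and 4430 with array weights, in treated mice to 4334 with the replicate block, and in deficient mice from 1196 higher and 999 lower to 995 and 2332 on FPKM as deposited. Treatment calls in the duodenum went from 3 to 1 without the 3xD5720 libraries or with the numbering scheme as a covariate, and to 9 without those libraries and deficient 3. In the colon array weights gave 8 and the numbering scheme 2, where there were 0. For differences in response the alternatives gave at most 5 calls over all genes. The alternatives without the 3xD5720 libraries, with or without deficient 3, were chosen after seeing the data. Among the 6 iron genes with recovered reads, depth limits Cybrd1 most, with as few as 47 in a colonic library.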
